A study of Homo sapiens with 4 samples.

Results

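The genes described here are hepatocyte growth factor (HGF), its receptor MET, the related receptor MST1R, the proteases HGFAC, HPN and ST14 that activate HGF, and the protease inhibitors SPINT1 and SPINT2. Each gene was represented by the probe set, a group of array probes read as 1 value, to which the platform annotation gave that gene symbol and no other. Had a gene owned several such probe sets, the one with the highest mean over the 4 arrays would have been chosen by its mean level, but each of the 8 genes had exactly 1. They were 8 of 18417 genes with such a probe set, in a table of 33297 probe sets. Gene expression was measured with Affymetrix Human Gene 1.0 ST arrays of a single colour, 4 in all and 2 for each of a pair of human prostate cancer cell lines. PC-3-BM is the bone-metastatic derivative of PC-3, labelled as having high metastatic potential, and PC-3 is the parental line, labelled as having poor potential. Both lines carried a firefly luciferase gene joined to green fluorescent protein. PC-3-BM was recovered from bone lesions of male nude mice after repeated injection of PC-3 cells into the heart, and it is a single selected derivative, which the methods call a clone. The labels describe growth in immunocompromised mice and isolation from bone for both lines, the methods describe culture, and which of these preceded RNA extraction was not settled. The labels number the arrays without saying that they came from separate cultures, so p-values cover no more than the array-to-array spread, which may be technical.

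HGF is secreted, in most tissues by stromal cells, as an inactive single chain that binds its receptor but does not switch it on. Serine proteases, among them the plasma protease HGFAC and the membrane-anchored hepsin (HPN) and matriptase (ST14), cut that chain into the active form, and the Kunitz-type inhibitors SPINT1 and SPINT2 block these proteases at the cell surface. Active HGF joins MET receptors on epithelial cells, whose kinase then drives scattering, migration, growth and survival, and MST1R is the sister receptor that binds the HGF-related ligand MST1. In prostate cancer this pathway is known above all in cells that have lost androgen receptor signalling and in bone lesions.

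Values are log2 expression after the robust multichip average (RMA), which subtracts background, gives all arrays the same distribution and summarises the probes of each probe set, so 1 unit is a doubling. All values together had a median of 6.69 and a lower quartile of 5.02, and array medians lay between 6.66 and 6.72. Pearson correlations over all probe sets were 0.996 and 0.997 within the lines and 0.983 to 0.985 between them. RMA gives no detection call and rests on most genes being equal between the lines, and in RNA from a whole line fewer expressing cells cannot be told apart from less RNA per cell. Differences are PC-3-BM minus PC-3 with the standard error (SE) of a limma fit across all probe sets, means carry the standard deviation (SD) of 2 arrays, and the words rose and fell are kept for an adjusted p (Benjamini-Hochberg over all probe sets) below 0.05. By that rule 7717 probe sets were called, 23.2% of all, with 11.6% called higher in PC-3-BM and 11.6% called lower. Of the probe sets with 1 symbol, 29.3% were called.

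Of the 8 genes, HGF and SPINT2 rose in PC-3-BM cells, SPINT1 and MST1R fell, and MET, HGFAC, HPN and ST14 did not pass the test. The difference for HGF was the largest of the 8, at 4.55-fold, and that for SPINT1 came next, with a level 2.59-fold lower in PC-3-BM. Calls were thus made for 4 of the 8 genes, beside the 23.2% of all probe sets and 29.3% of 1-symbol probe sets called. The genes were grouped with results of these arrays known, and HGF stood on the study's own list of changed genes, so this share is a description and was given no test. The median difference of the 8 genes was -0.07, against -0.04 over 1-symbol probe sets and -0.02 over all probe sets. The arrays of the lines did not overlap for 7 of the 8 genes, beside 62.8% of all probe sets.

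**Figure D1:**
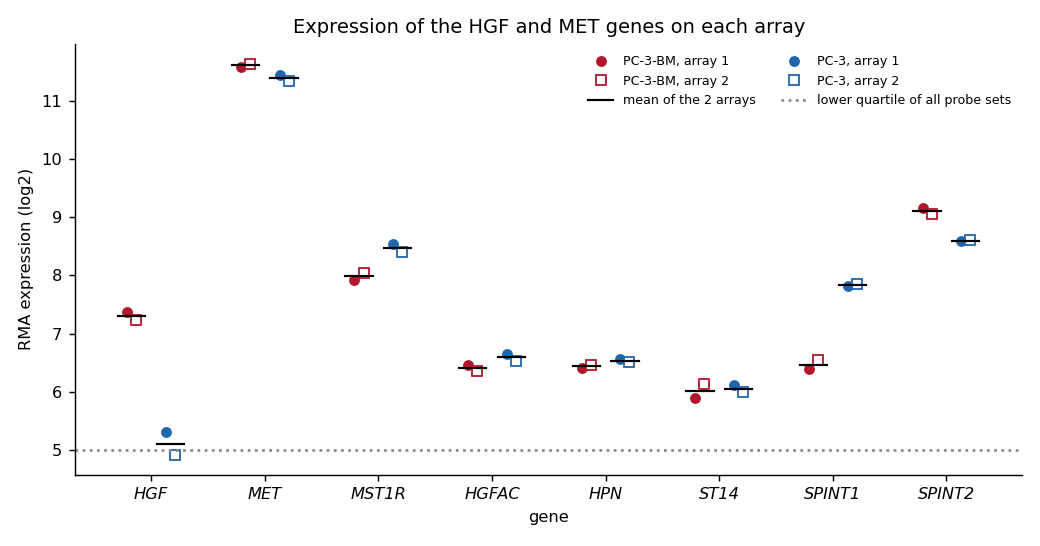
Expression after RMA (vertical axis, log2) of the 8 genes (horizontal axis), with PC-3-BM left of PC-3 for each gene, points for single arrays, bars for means of 2 arrays and a dotted line at the lower quartile of all values, 5.02. The arrays of the lines stand far apart for HGF and SPINT1, close together for HPN and HGFAC, and overlap for ST14.

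HGF and SPINT1 moved most and in opposite directions, so the 250 bases before their annotated starts are shown to set the promoters of the ligand and the inhibitor side by side. They are RefSeq sequences of GRCh38.p14, given 5′ to 3′ on the strand of the gene, in lower case with each CpG dinucleotide in capitals. The HGF window is chr7:81770048-81770297 on the minus strand. The SPINT1 window, at the first of the gene's listed starts, is chr15:40843798-40844047 on the plus strand.
HGF promoter: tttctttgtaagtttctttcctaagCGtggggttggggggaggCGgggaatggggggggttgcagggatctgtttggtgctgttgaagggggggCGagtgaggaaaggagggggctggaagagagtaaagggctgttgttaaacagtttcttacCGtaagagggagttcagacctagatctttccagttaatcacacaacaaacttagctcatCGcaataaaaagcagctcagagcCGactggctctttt
SPINT1 promoter: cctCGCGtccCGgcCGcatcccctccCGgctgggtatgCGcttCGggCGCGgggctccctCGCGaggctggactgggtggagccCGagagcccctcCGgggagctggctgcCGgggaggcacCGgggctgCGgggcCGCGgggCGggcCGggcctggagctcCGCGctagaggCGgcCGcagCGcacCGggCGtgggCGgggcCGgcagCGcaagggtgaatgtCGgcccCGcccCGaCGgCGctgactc
The HGF window held 6 CpG dinucleotides and 50% G and C, and 38.1% of the 35116 human promoters in the table had fewer CpGs. The SPINT1 window held 35 CpG dinucleotides and 80.4% G and C, more CpGs than 94.2% of promoters. The medians over all promoters were 11 CpG dinucleotides and 58% G and C. The windows thus differed widely in CpG content, that of HGF lying below the median and that of SPINT1 near the top.

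Both strands of each window were searched for a GC box (GGGCGG), an E-box (CAGGTG), an AP-1 element (TGANTCA) and a TATA box (TATAAA), and overlapping matches were counted. Such letters stood in 42.6%, 17.5%, 6.57% and 10.7% of all promoters of the same length, in that order. The HGF window held no match to any of these motifs, and the SPINT1 window held 3 GC boxes and no other match. A further SPINT1 start had 22 CpG dinucleotides and 1 E-box. The receptor promoters were also rich in CpG, with 24 for MET, which held 2 GC boxes, and 20 for MST1R, which held 4 GC boxes and 1 E-box. The protease promoters had fewer, with 7 for HGFAC, which held 2 E-boxes, and 10 for HPN, which held 2 GC boxes and 2 E-boxes. Entries were found for 6 of the 8 genes, and ST14 and SPINT2 were not analysed here. A match is a description of the letters only.

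HGF, the ligand, had log2 values of 7.37 and 7.24 on the PC-3-BM arrays, against 5.32 and 4.92 on the PC-3 arrays. Both PC-3-BM arrays lay well above both PC-3 arrays, and the PC-3 arrays were the more widely spaced. The means were 7.30 ± 0.09 in PC-3-BM and 5.12 ± 0.28 in PC-3 (SD, n = 2 each). The difference was 2.18 (SE 0.15, 95% interval 1.80 to 2.57), or 4.55-fold with an interval of 3.47 to 5.95, with a limma adjusted p of 0.00245. It ranked 49 among the increases of all 33297 probe sets. The PC-3 mean lay close to the lower quartile of all values, 5.02, where RMA values are compressed, so the fold is less certain than the direction. HGF passed the test whichever array was left out, with differences of 1.98 to 2.39, and did not pass without moderation of the variance (adjusted p = 0.0900).

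HGF is usually a product of stromal cells, and PC-3-BM came from mouse bone, so markers of other cell types are given beside it. The methods describe selection with the drug geneticin and sorting for green fluorescence of cells taken from bone. Host cells would be mouse cells on a human array, so these markers cannot decide whether such cells added to the HGF value. Of 10 stromal markers 9 were measured, 5 of them with a mean below the lower quartile. Their summed linear level was 679 to 718 on the PC-3-BM arrays, against 784 to 792 on the PC-3 arrays. LUM, a matrix proteoglycan of fibroblasts, rose, with values of 4.15 and 4.04 in PC-3-BM and 3.50 and 3.63 in PC-3, all below the lower quartile. PDGFRA, a receptor of mesenchymal cells, fell (-0.33, adjusted p = 0.0383). The sum was carried by PDGFRA, and without it the other 8 markers summed to 302 to 308 in PC-3-BM, against 290.4 to 294 in PC-3. The stromal markers thus had no common direction, with a median difference of 0.06, and their part in the HGF result was not tested.

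Calls among markers of the other cell types also went in both directions. The shares called were 16.7% for osteoblast, 0% for blood, 14.3% for endothelial, 20% for hepatocyte and 20% for prostate luminal markers. The stromal share was 22.2%. Each lay below the 23.2% called over all probe sets and the 29.3% of 1-symbol probe sets. The lists held 5 to 9 measured genes each, some below the lower quartile, so nothing about these cell types is read from the shares. Of 6 measured osteoblast and osteocyte markers only SOST, an osteocyte product, was called, and it fell (-0.44, adjusted p = 0.0299), with summed levels of 455 to 458 in PC-3-BM and 502 to 522 in PC-3. Of 7 measured blood cell markers limma called 0 (2 at an unadjusted p under 0.05), with sums of 255 to 264 in PC-3-BM and 271 to 283 in PC-3. Of 7 endothelial markers PECAM1, an endothelial adhesion molecule, rose (0.45, adjusted p = 0.0161), with sums of 1981 to 2098 in PC-3-BM and 2131 to 2315 in PC-3. Most of that sum was KDR, a vascular growth factor receptor named after its values were seen, and the other 6 markers summed to 361 to 370.0 in PC-3-BM and 352 to 354 in PC-3. Of 5 hepatocyte markers ALB, serum albumin, rose (0.38, adjusted p = 0.0306), with sums of 237 to 252 in PC-3-BM and 229 to 251 in PC-3. The ALB values in PC-3, 4.70 and 4.78, lay below the lower quartile of all values. Among prostate luminal markers 5 were measured, and HOXB13, a homeobox factor of prostate epithelium, fell, with 9.48 and 9.41 in PC-3-BM and 10.38 and 10.32 in PC-3. The other 4 did not pass the test and summed to 599 to 609 in PC-3-BM and 599 to 625 in PC-3. RMA does not show whether a marker is absent.

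MET, the HGF receptor, had values of 11.57 and 11.63 on the PC-3-BM arrays, against 11.43 and 11.34 on the PC-3 arrays. The PC-3-BM arrays lay above the PC-3 arrays by a narrow margin. The means were 11.60 ± 0.05 in PC-3-BM and 11.38 ± 0.07 in PC-3 (SD, n = 2 each). The difference of 0.22 (SE 0.08, 95% interval 0.02 to 0.41) was 1.16-fold and did not pass the test (limma adjusted p = 0.112). With a variance prior that followed intensity it did pass, at an adjusted p of 0.0386. As a fold, the interval ran between 1.01 and 1.33.

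MST1R, the sister receptor, had values of 7.93 and 8.04 on the PC-3-BM arrays, against 8.53 and 8.40 on the PC-3 arrays. The arrays did not overlap, and PC-3-BM was lower. The means were 7.98 ± 0.08 in PC-3-BM and 8.47 ± 0.09 in PC-3 (SD, n = 2 each), and the difference was -0.48 (SE 0.09, 95% interval -0.71 to -0.26, limma adjusted p = 0.0190). The level in PC-3 was thus 1.40-fold that in PC-3-BM. The call for MST1R was lost whichever array was left out, PC-3-BM 1, PC-3-BM 2, PC-3 1 or PC-3 2, at adjusted p of 0.0563 to 0.0995, and without moderation (adjusted p = 0.138). The directions for MET and MST1R were opposite, and the difference between them was not tested.

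The activating proteases showed small or no differences. Their means over the 4 arrays were 6.51 for HGFAC, 6.49 for HPN and 6.04 for ST14. These lay below the median of all values, 6.69, and whether the genes were detected is not known. HGFAC, the plasma protease named the HGF activator, had 6.47 and 6.37 in PC-3-BM, against 6.65 and 6.54 in PC-3. Its difference of -0.18 (SE 0.08, 95% interval -0.39 to 0.03) did not pass the test (limma adjusted p = 0.194), although the arrays did not overlap. HPN, which encodes hepsin, a membrane protease often raised in prostate tumours, had 6.42 and 6.47 in PC-3-BM, against 6.56 and 6.52 in PC-3. The gap between the lines was small and without overlap, and the difference was -0.10 (SE 0.07, 95% interval -0.28 to 0.08, limma adjusted p = 0.382). ST14, which encodes matriptase, had 5.90 and 6.13 in PC-3-BM, against 6.12 and 5.99 in PC-3. It was the gene with overlapping arrays, with a difference of -0.04 (SE 0.11, 95% interval -0.31 to 0.24, limma adjusted p = 0.843). Its sign turned without PC-3-BM 1 (0.079) and without PC-3 1 (0.02). The lower ends of these intervals, -0.39, -0.28 and -0.31, reflect the array-to-array spread only. They do not limit how far each protease could differ between the lines.

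The inhibitors moved in opposite directions. SPINT1, which blocks HGFAC, hepsin and matriptase, had values of 6.39 and 6.54 on the PC-3-BM arrays, against 7.82 and 7.86 on the PC-3 arrays. The lines were separated by far more than the spread within either. Means were 6.47 ± 0.11 in PC-3-BM and 7.84 ± 0.03 in PC-3 (SD, n = 2 each), and the difference was -1.37 (SE 0.08, 95% interval -1.59 to -1.16), or 2.59-fold lower in PC-3-BM, with a limma adjusted p of 0.00197. It ranked 127 among the decreases of all probe sets. SPINT1 passed the test whichever array was left out, with differences of -1.45 to -1.30, and did not pass without moderation (adjusted p = 0.0727).

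SPINT2, a broader Kunitz inhibitor of the same proteases, had values of 9.15 and 9.05 on the PC-3-BM arrays, against 8.59 and 8.60 on the PC-3 arrays. Both PC-3-BM arrays lay above the PC-3 arrays, which were almost equal. Means were 9.10 ± 0.07 in PC-3-BM and 8.60 ± 0.01 in PC-3 (SD, n = 2 each), and the difference was 0.51 (SE 0.07, 95% interval 0.32 to 0.70), 1.42-fold, with a limma adjusted p of 0.0114. The call for SPINT2 held without PC-3-BM 2 (adjusted p = 0.0415) and was lost without PC-3-BM 1, PC-3 1 or PC-3 2, at adjusted p of up to 0.0736, and without moderation (adjusted p = 0.0900). The study's own thresholds were a log2 difference beyond 2 in either direction and an adjusted p under 0.001. In the limma fit used here 17 probe sets passed them, and none of the 8 genes did. HGF exceeded the log2 threshold but not the one on limma adjusted p (0.00245). The study listed more genes at these thresholds, so its fit and this one differ, for a reason that was not tested.

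**Figure D2:**
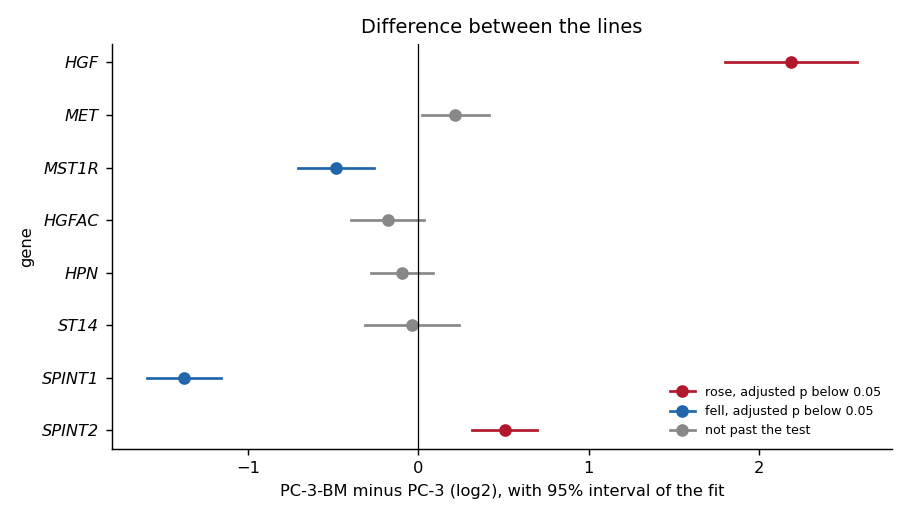
Difference PC-3-BM minus PC-3 (log2, horizontal axis) for each of the 8 genes, ordered by role, with the 95% interval of the limma fit. HGF lies furthest to the right at 2.18 and SPINT1 furthest to the left at -1.37, and the intervals of HGFAC, HPN and ST14 include 0.

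**Figure D3:**
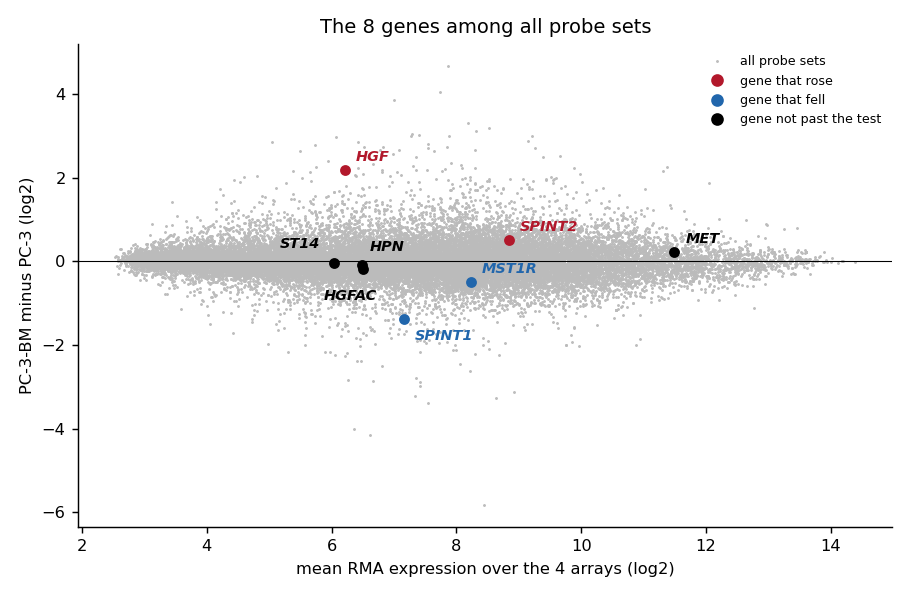
Difference PC-3-BM minus PC-3 (log2, vertical axis) against the mean expression over the 4 arrays (log2, horizontal axis), with small grey points for all 33297 probe sets and large points for the 8 genes. HGF lies beyond the bulk of the grey points and SPINT1 at its lower edge, and ST14, HPN, HGFAC and MET lie within it.

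The genes around these 8 were described through 10 lists holding 157 different genes, of which 140 had a 1-symbol probe set. Of these, 27 rose and 26 fell, 37.9% of those measured, with a median difference of -0.01, beside 29.3% called and a median of -0.04 over all 1-symbol probe sets. The share called in each list is given beside that 29.3%, which covers 1-symbol probe sets at every level. The lists differed in level, and the shares were not matched for it. In PC-3-BM the median level was 4.90 for the transmembrane proteases and 6.06 for the soluble proteases. It was 9.49 for MET turnover and 10.14 for MET partners. The epithelial list, at 5.65, had a low level and 47.6% called. No set test was run, and the lists were drawn up with earlier results of these arrays known.

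Among 12 plasminogen-related ligands and soluble activating proteases, 1 rose, 1 fell and 10 did not pass the test (16.7% called), with a median of -0.12. MST1, the ligand of MST1R, had 6.50 and 6.67 in PC-3-BM, against 6.88 and 6.50 in PC-3. Its arrays overlapped, and its difference was -0.11 (SE 0.15, adjusted p = 0.662). The plasminogen activators, which can also cleave HGF, parted: PLAT, the tissue-type activator, rose, with 13.01 and 12.95 in PC-3-BM and 11.11 and 11.12 in PC-3, a difference of 1.86 (SE 0.07) or 3.64-fold. PLAU, the urokinase-type activator, fell, with 10.11 and 10.08 in PC-3-BM and 11.21 and 11.17 in PC-3 (-1.09, SE 0.07, adjusted p = 0.00204). Of 14 measured type II transmembrane serine proteases, the family of hepsin and matriptase, 1 rose and 13 did not pass the test (7.14% called). The gene that rose was CORIN, which cuts the atrial natriuretic peptide precursor (0.91, SE 0.12, adjusted p = 0.00906).

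Of 10 other measured Kunitz and serpin inhibitors, 2 rose and 8 did not pass the test (20% called), and the median was 0.08. TFPI, the tissue factor pathway inhibitor, had 10.42 and 10.36 in PC-3-BM, against 8.78 and 8.71 in PC-3, a 3.13-fold rise (adjusted p = 0.00129). TFPI2, a Kunitz inhibitor of plasmin and trypsin, rose by 1.02 (SE 0.09, adjusted p = 0.00382). SPINT1 thus fell while the Kunitz inhibitors SPINT2, TFPI and TFPI2 rose. Of 8 measured substrates of matriptase and hepsin, 6 fell and 2 did not pass the test (75% called), and the median was -0.47. Among those that fell, EPCAM, PLAU and PRSS8 also stand in other lists here, so the list results are not separate. FGFBP1, which releases stored fibroblast growth factors, had 6.77 and 6.30 in PC-3-BM, against 8.39 and 8.47 in PC-3 (-1.90, SE 0.17, adjusted p = 0.00380). EPCAM, an epithelial adhesion molecule, fell by 1.30 (SE 0.09, adjusted p = 0.00266). PDGFD, a growth factor released by proteolysis, fell by 0.48 (SE 0.08, adjusted p = 0.0147). PRSS8, the protease prostasin, fell by 0.29 (SE 0.07, adjusted p = 0.0453).

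Downstream of MET, 22 of 31 adaptors and signal transducers were measured, and 4 rose and 4 fell (36.4% called), with a median of 0.07. GAB1, the docking protein that binds MET directly, rose, with 8.94 and 8.91 in PC-3-BM and 8.34 and 8.57 in PC-3 (0.47, SE 0.10, adjusted p = 0.0307). SHC1, another adaptor, rose by 0.57 (SE 0.07, adjusted p = 0.00700). The kinase AKT1 fell by 0.75 (SE 0.07, adjusted p = 0.00435), and PTK2, the focal adhesion kinase, fell by 0.66 (SE 0.09, adjusted p = 0.0106). Of 17 measured genes for turnover and dephosphorylation of MET, 5 rose and 3 fell (47.1% called), with a median of 0.08. CBL, the ubiquitin ligase of MET, did not pass (-0.01, SE 0.08, adjusted p = 0.929), and its paralogue CBLB rose by 0.64 (SE 0.07, adjusted p = 0.00680). ADAM17, a sheddase, rose by 0.61 (SE 0.07, adjusted p = 0.00673), and the sorting protein STAM2 rose by 0.50 (SE 0.08, adjusted p = 0.0147). PTPN2, a tyrosine phosphatase, fell by 0.58 (SE 0.07, adjusted p = 0.00811).

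The list of MET partners at the cell surface had the highest median, 0.29, with 8 of 17 genes rising and 3 falling (64.7% called). NRP2, a coreceptor for semaphorins and growth factors, had 8.31 and 8.21 in PC-3-BM, against 6.93 and 6.72 in PC-3 (1.43, SE 0.10, adjusted p = 0.00254). EGFR, the epidermal growth factor receptor, rose by 0.72 (SE 0.07, adjusted p = 0.00485). ITGB4, the β4 integrin, which can act as a MET signalling platform, had 6.90 and 7.06 in PC-3-BM, against 9.07 and 8.87 in PC-3 (-1.99, SE 0.10, adjusted p = 0.00160). PLXNB1, a semaphorin receptor that couples to MET, fell by 0.77 (SE 0.09, adjusted p = 0.00664).

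Of 10 MAP kinase output genes, 2 rose and 3 fell (50% called), with a median of -0.14. EPHA4, an ephrin receptor, rose by 1.26 (SE 0.07, adjusted p = 0.00183), and SPRY2, a feedback inhibitor of receptor kinases, rose by 0.73 (SE 0.08, adjusted p = 0.00555). CCND1, cyclin D1, fell by 0.89 (SE 0.09, adjusted p = 0.00504), and ETV4, an ETS factor, fell by 0.57 (SE 0.07, adjusted p = 0.00677). Of 15 genes known to be induced by HGF in epithelial cells, 2 rose and 3 fell (33.3% called), PLAU among those that fell, with a median of -0.06. VEGFA, an angiogenic factor, rose by 0.89 (SE 0.07, adjusted p = 0.00290). MYC, a growth-promoting factor, fell by 0.54 (SE 0.08, adjusted p = 0.0121), and FOSL1, an AP-1 subunit, fell by 0.46 (SE 0.07, adjusted p = 0.0128).

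SPINT1 is an epithelial gene, and an epithelial list is given beside it. Of 21 measured genes 8 fell and 2 rose (47.6% called), with a median of -0.06. KRT8, a keratin of simple epithelia, had 8.83 and 9.05 in PC-3-BM, against 11.02 and 10.93 in PC-3 (-2.03, SE 0.10, adjusted p = 0.00150). CLDN3, a tight junction protein, fell by 1.16 (SE 0.13, adjusted p = 0.00657), and ELF3, an epithelial ETS factor, rose by 1.22 (SE 0.12, adjusted p = 0.00478). The part of a change in epithelial state in the fall of SPINT1 was not tested.

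**Figure D4:**
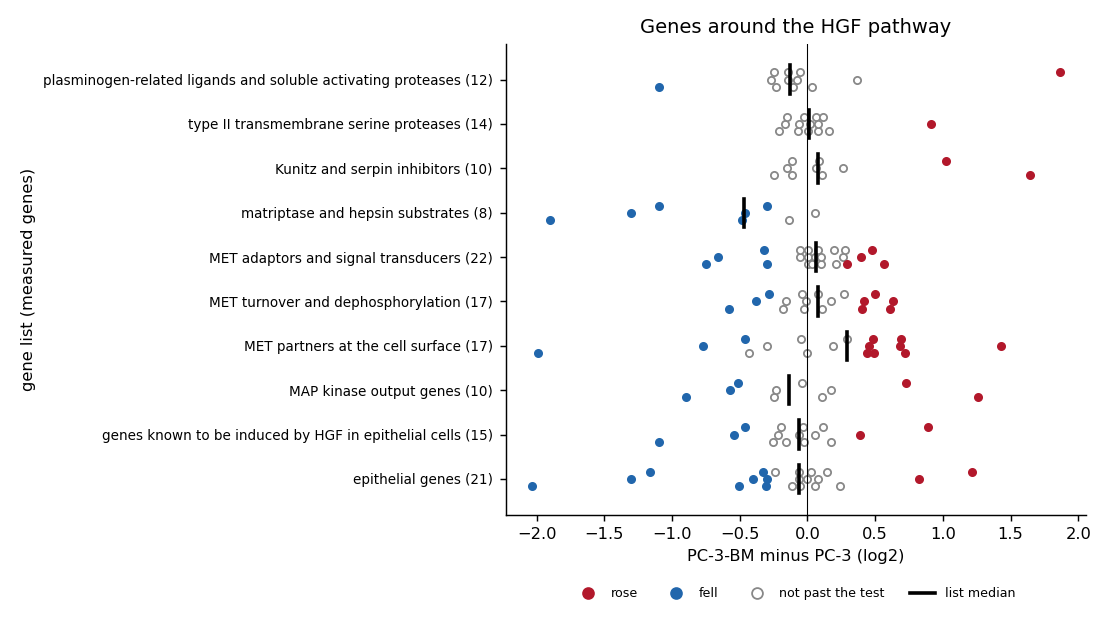
Difference PC-3-BM minus PC-3 (log2, horizontal axis) of every measured gene in 10 lists around the HGF pathway, with filled points for genes that rose or fell, open points for the rest and a bar for the list median. The substrates of matriptase and hepsin lie mostly to the left, with a median of -0.47, and the MET partners have the highest median, 0.29.

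On the chromosomes, the 5 nearest measured genes on either side of each of the 8 genes were read, 80 different neighbours, of which 14 rose and 6 fell. The 25% called lay between the shares of all probe sets, 23.2%, and of 1-symbol probe sets, 29.3%, and so close to the background. Around HGF on chromosome 7, 5 neighbours rose and 5 did not pass the test, 9 of 10 differences were above 0, and the median was 0.29. SEMA3C, the next gene on one side, encodes a secreted semaphorin and averaged 9.45 in PC-3-BM and 7.52 in PC-3, a 3.80-fold rise (adjusted p = 0.00150). CACNA2D1, the next gene on the other side, encodes a calcium channel subunit and rose by 1.28 (SE 0.09, adjusted p = 0.00242). SEMA3A, a further semaphorin gene, rose by 0.73 (SE 0.09, adjusted p = 0.00734). The genes directly on either side of HGF thus rose as it did.

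MET also lies on chromosome 7, and 3 of its neighbours rose and 7 did not pass the test, with a median of 0.14. These were the transcription factor FOXP2 (1.12, adjusted p = 0.00497), the membrane scaffold CAV1 (0.72, adjusted p = 0.00415) and the focal adhesion protein TES (0.30, adjusted p = 0.0396). FOXP2 averaged 5.52 in PC-3-BM and 4.40 in PC-3, the latter below the lower quartile of all values, 5.02. Around SPINT1 on chromosome 15, 1 neighbour rose and 2 fell. CHAC1, a glutathione-degrading enzyme, rose by 1.32, and the Notch ligand DLL4 and the chromatin remodeller INO80 fell by 0.91 and 0.36. Around SPINT2 on chromosome 19, YIF1B and C19orf33 rose by 0.73 and 0.34 and DPF1 fell by 0.69. Around MST1R on chromosome 3, TRAIP and MON1A fell by 0.79 and 0.46. Around ST14 on chromosome 11, SNX19 and PRDM10 rose by 0.49 and 0.48 and ZBTB44 fell by 0.39. Around HGFAC on chromosome 4 only HTT was called, with a rise of 0.48, and around HPN on chromosome 19 limma called 0 of 10 (2 at an unadjusted p under 0.05).

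**Figure D5:**
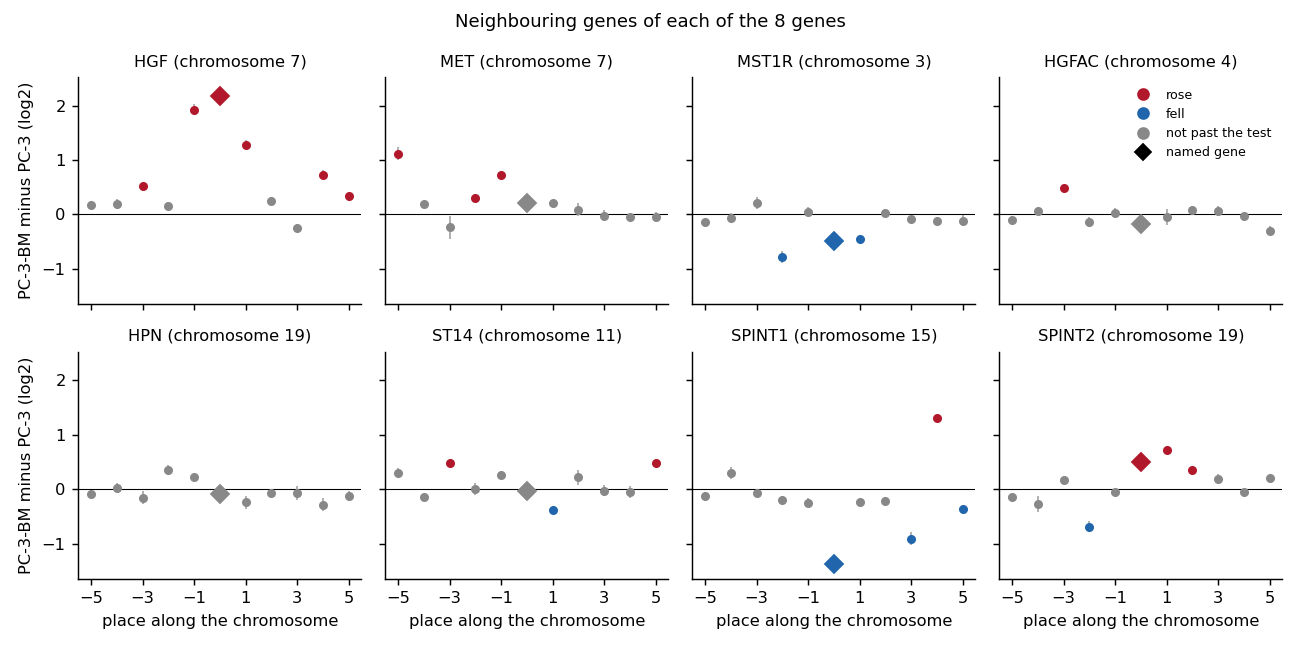
Difference PC-3-BM minus PC-3 (log2, vertical axis, with SE bars) of each of the 8 genes (diamond, place 0) and the 5 measured genes on either side of it in chromosome order (horizontal axis). HGF stands between SEMA3C and CACNA2D1, which both rose, while the genes directly on either side of SPINT1 did not pass the test.

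The genes most like HGF and MET were found among all 1-symbol probe sets by the root mean square distance between their 4 values, each gene centred on its own mean over the 4 arrays. FGF7, a fibroblast growth factor of stromal cells, was nearest to HGF (distance 0.0443), with 6.79 and 6.63 in PC-3-BM and 4.74 and 4.43 in PC-3. PDGFA, a platelet-derived growth factor chain, came next (distance 0.0642), with 9.30 and 9.14 in PC-3-BM and 7.09 and 6.85 in PC-3. SULT1C2, a sulphotransferase, followed (distance 0.110), with 6.92 and 6.82 in PC-3-BM and 4.68 and 4.58 in PC-3. Genes chosen by this distance share the pattern of HGF or MET by design. Those near HGF were thus high on both PC-3-BM arrays and low on both PC-3 arrays. The genes nearest to MET were KHDRBS1, LOXL1 and CCR2, at distances of 0.00573, 0.00678 and 0.00806, and their differences of 0.22, 0.20 and 0.23 did not pass the test. The distance takes no account of level, and the CCR2 values, 4.53 to 4.85, all lay below the lower quartile of all values.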

How the data were processed

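The authors made the deposited log2 values with RMA from Affymetrix array images, with limma 3.24 and R 3.2 listed in the submitters' processing notes. The 33297 probe sets were used as deposited. By the platform annotation 19460 had 1 gene symbol, 1754 several and 12083 none. The genome build is not given in the sources used here, and RefSeq (GRCh38.p14) supplied gene order and the promoter sequences, which were not matched to the probes. PC-3-BM was compared with PC-3 in limma 3.58.1 under R 4.3.3, with group means, empirical Bayes moderation (2.88 prior beside 2 residual degrees of freedom) and two-sided p-values adjusted over all probe sets by Benjamini-Hochberg. With 2 arrays per line the smallest p of an exact two-sided permutation test is 0.333, and the number of arrays limits the precision. On simulated arrays with known shifts, the fit was checked only for estimates of the right size and sign, not for its calls. Array numbers were not treated as pairing the samples.

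The members and gene lists were chosen with earlier results of these arrays known, so no value here is independent evidence. Named genes were the 8 genes, MST1, PLAU, PRSS8, GAB1 and CBL, up to 4 genes per list with the largest called differences, up to 3 called neighbours of each gene, and the 3 genes most like HGF and like MET. Alternatives changed scaling between arrays, the probe sets tested, the variance prior, moderation, the replicate block, the threshold and the arrays included.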

Additional observations from a re-analysis of the deposited data

How the results depend on the processing

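With 2 arrays per line every call leans on variance shared across probe sets, and RMA values give no signal over background. Without moderation, called probe sets numbered 8 higher and 5 lower in PC-3-BM, against 3854 and 3863, and 0 and 0 of the 8 genes. There the adjusted p was 0.0900 for HGF (2.18), 0.138 for MST1R (-0.48), 0.0727 for SPINT1 (-1.37) and 0.0900 for SPINT2 (0.51). With an intensity trend in the prior MET (0.22) was called. The study's thresholds, applied to the fit used here, left 12 probe sets higher and 5 lower, fewer than the study listed. Median centring, repeated quantile normalization, a mean above 5 and 1-symbol probe sets alone kept the 4 called genes called. The labels number the arrays without saying that they are paired, and same-numbered deviations had a correlation of -0.0174, which cannot settle it. With the replicate block 3352 probe sets rose and 3121 fell, and 2 and 2 of the 8 genes. Each gene had 1 probe set, so averaging probe sets was not a separate run.

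Leaving out 1 array at a time, the lone array being assumed to vary like the other line, left 1305 to 2109 probe sets higher and 933 to 1745 lower, 1 to 2 of the 8 genes higher and 1 to 1 lower, 11 to 17 list genes higher and 9 to 14 lower, and 6 to 8 neighbours higher and 0 to 3 lower. Differences were then 1.98 to 2.39 for HGF, 0.17 to 0.27 for MET, -0.55 to -0.42 for MST1R, -0.24 to -0.12 for HGFAC, -0.12 to -0.07 for HPN, -0.15 to 0.08 for ST14, -1.45 to -1.30 for SPINT1 and 0.46 to 0.55 for SPINT2. ST14 turned sign without PC-3-BM 1 (0.079, adjusted p = 0.679) and without PC-3 1 (0.02, adjusted p = 0.932). Fewer arrays in these fits leave fewer calls. Other causes were not tested.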
